A study of Mus musculus with 6 samples.

Results

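The 40 genes described here are a listed set of mouse macrophage, monocyte, dendritic cell and granulocyte genes, measured by RNA sequencing in bulk mammary tumors. They were found by symbol among the 54232 gene identifiers of the count tables, and all 40 were present. Of these, 36 passed a filter on low counts, and 4 (Marco, Chil3, Clec9a and S100a9) had too few counts to be tested.

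There were 6 libraries in 2 genotype groups. The 3 fx/fx libraries came from NIC+ tumors with the CdGAP fx/fx genotype, in which both copies of the CdGAP gene (Arhgap31) carry sites for Cre recombinase, and the 3 wt/wt libraries came from NIC+ tumors with unmodified CdGAP. Both groups carried the NIC transgene, in which the MMTV promoter expresses an activated ErbB2 (Neu) oncogene together with Cre, so the oncogene and Cre were shared by the controls. Cre is driven in mammary epithelium by this design, and the myeloid cells of a tumor are of another lineage. Whether Cre acted in the myeloid cells was not tested. The libraries are called fx1, fx2, fx3, wt1, wt2 and wt3 by the replicate number in their labels. No source used here gives the age of the mice. Nothing in the labels ties each library to an animal of its own, and the p-values therefore cover the spread among these libraries, which may be technical.

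Tumor macrophages depend on colony stimulating factor 1, which binds the receptor encoded by Csf1r and keeps the lineage alive. The lineage is programmed by the transcription factor PU.1, encoded by Spi1. Macrophages take up dying cells and debris through scavenger receptors, bind antibody through Fc receptors, secrete complement C1q and digest what they engulf in lysosomes. Blood monocytes reach tissue through the chemokine receptor Ccr2, while genes used for resident tissue macrophages include Cx3cr1, Lyve1, Folr2, Cd163 and Mrc1.

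Library totals ran between 36732137 counts in fx2 and 53606276 counts in fx1, and mitochondrial genes took between 1.81% and 2.93% of counts. Levels are counts per 1000000 counts (CPM) after TMM scaling, or length-scaled transcript shares (TPM, which sum to 1000000 in a library) where genes are compared with each other. A count of 0 allows a level of up to between 0.056 and 0.0817 CPM (3 counts), which covers counting error only. Arhgap31 measured 156, 44.1 and 116 CPM in the fx/fx libraries, against 664, 433 and 549.8 CPM in the wt/wt libraries. Its log2 fold change of fx/fx over wt/wt was -2.38 ± 0.45 (SE), with an edgeR adjusted p of 0.153, a DESeq2 adjusted p of 4.8e-05 and an exact 2-sided permutation p of 0.1, the smallest that 20 orderings allow. Reads from exons outside the floxed part can remain, and no source used here names the floxed exons. The 8 epithelial markers summed to between 6018 and 7560 CPM in the fx/fx libraries and between 4718 and 6875 CPM in the wt/wt libraries.

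The promoters of 4 members are shown because their genes stand for the patterns below: C1qb and C1qc are macrophage genes that kept close to each other in every library, and Chit1 and Cd163 were the members with the smallest p. Each window is the 250 bases before the RefSeq transcription start on GRCm38.p6, given 5′ to 3′ on the gene's strand. Capitals mark the core of the PU.1 site, GAGGAA, and the AP-1 site, TGACTCA, each searched on both strands, so that GAGGAA on the other strand reads TTCCTC and TGACTCA reads TGAGTCA. The windows are chr4:136886201-136886450 on the minus strand for C1qb, chr4:136892915-136893164 on the minus strand for C1qc, chr1:134110992-134111241 on the plus strand for Chit1 and chr6:124304401-124304650 on the plus strand for Cd163. The C1qc window starts from a RefSeq start inside the Ensembl limits of that gene.
C1qb: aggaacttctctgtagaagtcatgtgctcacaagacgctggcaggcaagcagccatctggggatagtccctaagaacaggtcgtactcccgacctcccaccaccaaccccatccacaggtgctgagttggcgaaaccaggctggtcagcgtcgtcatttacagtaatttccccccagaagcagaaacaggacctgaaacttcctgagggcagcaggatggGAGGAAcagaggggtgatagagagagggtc
C1qc: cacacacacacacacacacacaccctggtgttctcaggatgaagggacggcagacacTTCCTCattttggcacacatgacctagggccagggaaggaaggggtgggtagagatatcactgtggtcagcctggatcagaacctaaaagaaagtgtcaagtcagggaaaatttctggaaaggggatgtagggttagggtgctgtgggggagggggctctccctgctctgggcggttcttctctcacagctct
Chit1: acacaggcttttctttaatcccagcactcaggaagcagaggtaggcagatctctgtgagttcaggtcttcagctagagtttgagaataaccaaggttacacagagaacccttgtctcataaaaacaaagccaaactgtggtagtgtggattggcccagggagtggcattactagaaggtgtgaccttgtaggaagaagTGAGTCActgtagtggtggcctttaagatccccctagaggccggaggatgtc
Cd163: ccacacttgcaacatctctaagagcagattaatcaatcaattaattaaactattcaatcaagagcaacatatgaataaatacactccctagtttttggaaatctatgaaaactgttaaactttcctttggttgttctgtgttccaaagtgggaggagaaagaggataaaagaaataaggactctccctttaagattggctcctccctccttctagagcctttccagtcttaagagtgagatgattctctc

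The C1qb and C1qc windows held 1 PU.1 core each, the Chit1 window held 1 AP-1 site, and the Cd163 window held neither motif. RefSeq gave 37 promoters for 32 of the 40 members, of which 19 (51.4%) held the PU.1 core, against 23.3% of all 32851 promoters of the same length. The AP-1 site was in 4 of the 37 (10.8%), those of Cd68, Chit1, Folr2 and Zbtb46, against 4.46% of all promoters. A match describes the letters only.

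Compared per transcript length, most macrophage genes stood far above the dendritic and granulocyte genes. Apoe, the lipid carrier that macrophages and other cells secrete, was the highest at 1517 ± 992 TPM in the fx/fx libraries and 1461 ± 304 TPM in the wt/wt libraries (SD, n = 3 each). Lysozyme (Lyz2) followed by its mean over all 6 libraries, at 389 ± 174 TPM in fx/fx and 395 ± 118 TPM in wt/wt. Arginase 1 (Arg1) had 286 ± 197 TPM in fx/fx and 444 ± 342 TPM in wt/wt. C1qa had 325 ± 140 TPM in fx/fx and 335 ± 92.2 TPM in wt/wt, and the lysosomal protease Ctss had 332 ± 164 TPM in fx/fx and 321 ± 122 TPM in wt/wt. In wt/wt the mean of Arg1 was above that of Lyz2. Csf1r, the defining macrophage receptor, ranked 13th of the 40 with 43.3 ± 13.8 TPM in fx/fx and 41.5 ± 14.2 TPM in wt/wt. The classical monocyte marker Ly6c2 and the dendritic cell genes Flt3 and Xcr1 averaged under 1 TPM in both genotypes.

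**Figure D1:**
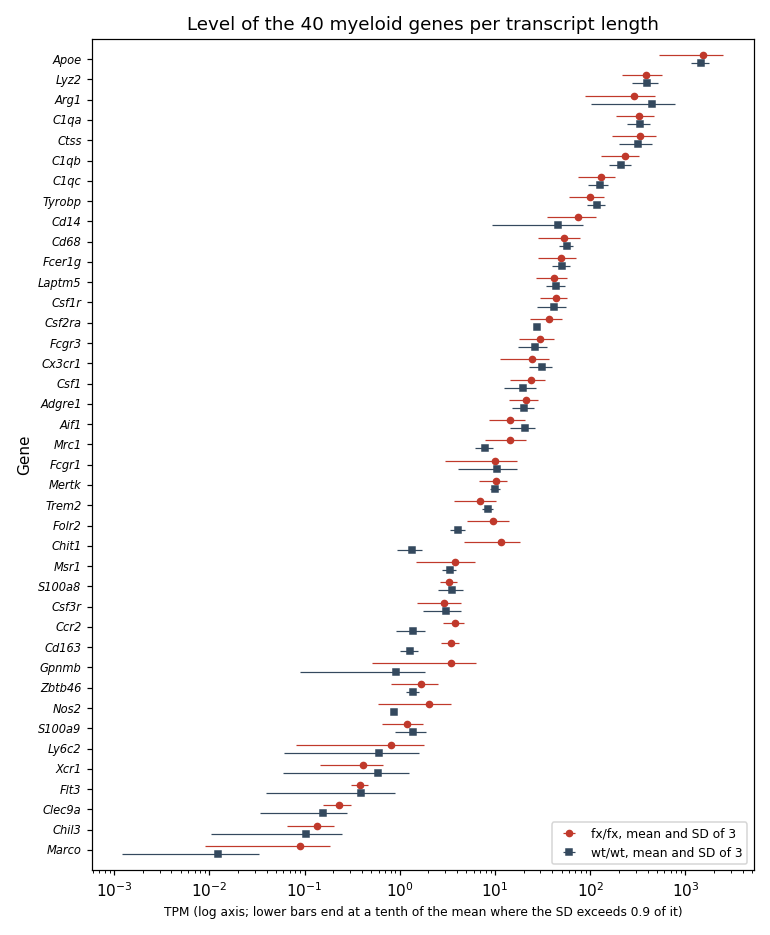
Mean TPM of the 40 genes on a log axis, highest at the top, with fx/fx as red circles above wt/wt as dark squares and bars of 1 SD over 3 libraries (lower bars are cut short where the SD nearly reaches or exceeds the mean). Apoe at 1517 TPM in fx/fx and 1461 TPM in wt/wt leads, and the genotypes lie apart for Chit1, Cd163 and Ccr2 while most other pairs of bars cover each other.

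Across the set there was no common shift between genotypes, and the members with the smallest p were a few receptors and a chitinase. Of the 36 members tested, 21 were higher and 15 lower in fx/fx, with a median log2 fold change of 0.03, while 49.6% of all 16752 genes tested were higher and their median was -0.0043. edgeR's quasi-likelihood test called 0 of the 36 at an adjusted p under 0.05, as it called 0.0% of all genes tested. At an unadjusted p under 0.05 there were 5 members higher in fx/fx (Chit1, Cd163, Ccr2, Folr2 and Mrc1), against 8.18% of all genes, and 0 lower, against 6.04% of all genes. DESeq2, run as an alternative, called 3 members higher at an adjusted p under 0.05 (Chit1, Cd163 and Ccr2), against 2.79% of all genes, and 0 lower, against 1.66%. The genotypes did not overlap for 4 of the 36 higher in fx/fx (Chit1, Cd163, Ccr2 and Folr2), a share close to the 9.74% of all genes. There were 0 lower without overlap, against 9.93% of all genes. The 5 members at an unadjusted p under 0.05 became 3 without wt3, and the 3 called by DESeq2 became 7 without fx3 and 2 without wt3. These are bulk tumors, so fewer cells of a type and less RNA per cell cannot be told apart.

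**Figure D2:**
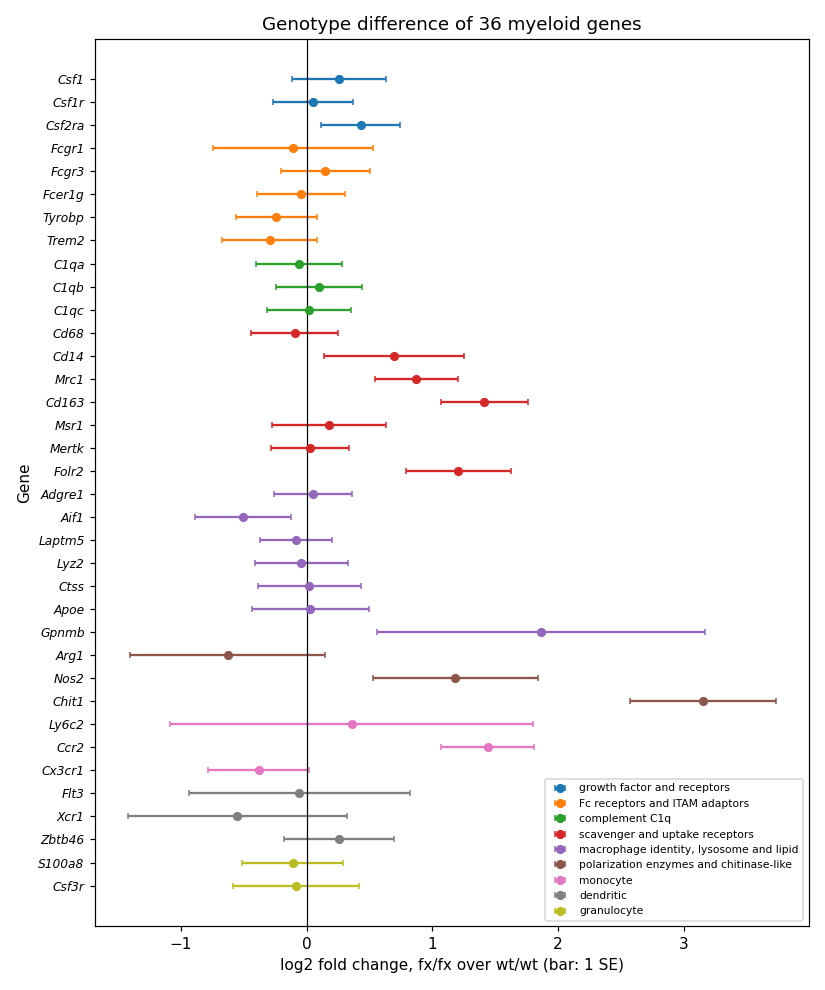
Log2 fold change of fx/fx over wt/wt for each of the 36 genes tested, grouped and coloured by role, with bars of 1 SE from edgeR. Chit1 at 3.15 lies farthest to the right, and the Fc receptor, C1q and macrophage identity genes have bars that cross 0 except for Aif1 and Gpnmb.

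Chit1 encodes chitotriosidase, a chitin-degrading enzyme, and showed the widest genotype difference of the set. Which cells of the tumors made it was not tested. It had 333, 93 and 437 counts in the fx/fx libraries, against 34, 40 and 24 counts in the wt/wt libraries. Scaled, that was 6.27, 2.49 and 10.6 CPM in fx/fx, against 0.753, 0.894 and 0.524 CPM in wt/wt. Every fx/fx library was above every wt/wt library, and fx3 was the highest although it was the lowest library for most other members. The mean was 6.45 ± 4.06 CPM in fx/fx and 0.724 ± 0.187 CPM in wt/wt (SD, n = 3 each), with a log2 fold change of 3.15 ± 0.58 (SE). The unadjusted p was 0.000775, the edgeR adjusted p 0.153 and the DESeq2 adjusted p 2.7e-06, and without the low count filter the edgeR adjusted p was 0.0456. Chit1 (ENSMUSG00000026450) lies on chromosome 1 of GRCm38 (134111242 to 134151540, plus strand). The 73 well expressed genes within 10 Mb of it had median differences from the wt/wt mean of 0.44, 0.34 and 0.40 on the log2 scale in the fx/fx libraries, against 0.43, -0.63 and 0.19 in the wt/wt libraries, and the part of this region-wide difference in the Chit1 value was not tested.

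Cd163 (ENSMUSG00000008845, chromosome 6, 124304656 to 124330527, plus strand), the macrophage receptor that clears haptoglobin-bound hemoglobin, had the smallest p after Chit1. It measured 5.33, 6.86 and 4.75 CPM in the fx/fx libraries, against 2.28, 1.54 and 2.53 CPM in the wt/wt libraries. The groups did not overlap, and the lowest fx/fx library (fx3) was well above the highest wt/wt library (wt3). The means were 5.65 ± 1.09 CPM in fx/fx and 2.12 ± 0.516 CPM in wt/wt, a log2 fold change of 1.41 ± 0.35 (SE) with an edgeR adjusted p of 0.185 and a DESeq2 adjusted p of 0.0035. Cd163 kept its DESeq2 call when any 1 library was left out, as did Chit1.

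Ccr2 (ENSMUSG00000049103, chromosome 9, 124101950 to 124113557, plus strand) is the receptor that draws inflammatory monocytes from blood. It measured 7.42, 9.45 and 6.04 CPM in the fx/fx libraries, against 3.90, 2.55 and 1.99 CPM in the wt/wt libraries. All 3 fx/fx libraries were above all 3 wt/wt libraries. The means were 7.64 ± 1.72 CPM in fx/fx and 2.81 ± 0.983 CPM in wt/wt, a log2 fold change of 1.44 ± 0.37 (SE) with an edgeR adjusted p of 0.196 and a DESeq2 adjusted p of 0.0079. The DESeq2 adjusted p was 0.0562 without wt2 and 0.0593 without wt3. The other monocyte genes had no such separation: Ly6c2, a surface protein of classical monocytes, had 0.282, 1.58 and 0.121 CPM in fx/fx, against 1.46, 0.0223 and 0.0437 CPM in wt/wt. It was high in fx2 and wt1 and near the detection limit in wt2 and wt3, and its near-identical copy Ly6c1 makes its count uncertain. Cx3cr1, the fractalkine receptor of patrolling monocytes and resident macrophages, had 48.4, 33.0 and 15.6 CPM in fx/fx, against 55.9, 36.5 and 34.0 CPM in wt/wt, with a log2 fold change of -0.38 ± 0.40 (SE). It was the monocyte-list member with the highest TPM, at 24.3 ± 13.1 TPM in fx/fx and 31.0 ± 8.41 TPM in wt/wt, and its edgeR adjusted p was 0.726.

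Folr2 (ENSMUSG00000032725, chromosome 7, 101839988 to 101857194, minus strand) is the folate receptor of tissue-resident macrophages. It measured 3.58, 6.67 and 2.96 CPM in the fx/fx libraries, against 2.30, 1.79 and 1.62 CPM in the wt/wt libraries. The groups did not overlap, with fx2 far above the others. The log2 fold change was 1.21 ± 0.42 (SE) with an edgeR adjusted p of 0.268 and a DESeq2 adjusted p of 0.0753, which was 0.0286 without fx3.

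Mrc1 (ENSMUSG00000026712, chromosome 2, 14229392 to 14332057, plus strand) is the mannose receptor, also called CD206. It measured 25.0, 40.3 and 17.1 CPM in the fx/fx libraries, against 15.0, 17.6 and 12.5 CPM in the wt/wt libraries. The genotypes overlapped by a narrow margin, since fx3 was just below wt2. Its log2 fold change was 0.87 ± 0.33 (SE), its unadjusted p 0.0313, its edgeR adjusted p 0.305 and its DESeq2 adjusted p 0.210. The 52 neighbours of Mrc1 on chromosome 2 had medians of -0.06, 0.44 and 0.09 in the fx/fx libraries, against 0.0040, -0.02 and 0.06 in the wt/wt libraries, and their part in the fx2 value was not tested.

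**Figure D3:**
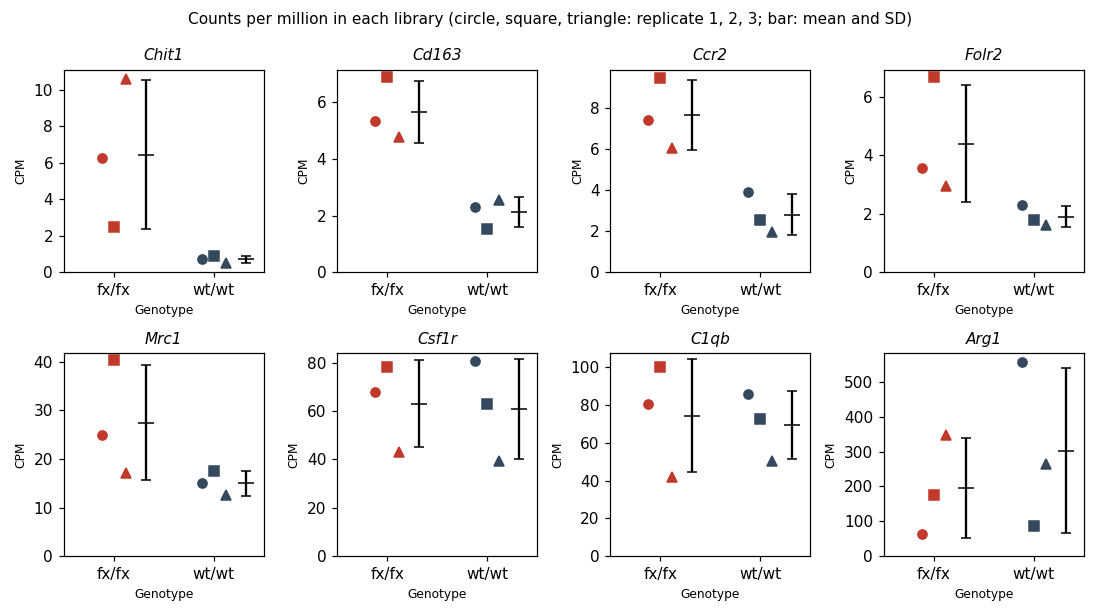
CPM of 8 genes in each library, with fx/fx in red left of wt/wt in dark blue, circle, square and triangle for replicates 1, 2 and 3, and black bars for mean and SD. Chit1, Cd163, Ccr2 and Folr2 have no overlap between genotypes, Mrc1 has a narrow one, and for Csf1r, C1qb and Arg1 the genotypes overlap widely.

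The remaining scavenger and uptake receptors overlapped between genotypes. Cd14, the co-receptor for bacterial lipopolysaccharide, had the highest TPM of this role by the mean over all 6 libraries (74.7 ± 39.6 in fx/fx and 46.4 ± 37.2 in wt/wt), while Cd68 was above it in wt/wt (56.6 ± 9.41). Cd14 measured 54.6, 27.4 and 22.6 CPM in fx/fx, against 11.8, 40.4 and 12.4 CPM in wt/wt. Library wt2 was above 2 of the 3 fx/fx libraries. Its log2 fold change was 0.70 ± 0.56 (SE), with an edgeR adjusted p of 0.623, and was 1.52 without wt2. Cd68, a lysosomal glycoprotein of macrophages, measured 20.4, 28.8 and 10.9 CPM in fx/fx, against 18.7, 24.2 and 21.3 CPM in wt/wt. Msr1, which takes up modified lipoproteins, ran between 3.47 and 11.9 CPM in fx/fx and between 5.47 and 7.08 CPM in wt/wt. Mertk, the receptor tyrosine kinase for engulfing dying cells, ran between 9.02 and 19.0 CPM in fx/fx and between 12.2 and 14.4 CPM in wt/wt, and was the only 1 of the 8 core macrophage markers that was highest in fx3. Marco, a scavenger receptor of marginal zone and alveolar macrophages, stayed at 0 in fx1, wt1 and wt2 and reached 0.107 CPM in fx2. Across the role, 6 of 7 tested members were higher in fx/fx with a median log2 fold change of 0.70, against 49.6% of all genes higher, and 3 had an unadjusted p under 0.05, against 8.18% of all genes.

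The growth factor of the macrophage lineage and the receptors in the set overlapped between genotypes. Csf1 measured 42.2, 48.7 and 21.9 CPM in the fx/fx libraries, against 44.3, 20.6 and 29.3 CPM in the wt/wt libraries. Its receptor Csf1r measured 67.7, 78.1 and 43.2 CPM in fx/fx, against 80.5, 63.1 and 39.2 CPM in wt/wt, with a log2 fold change of 0.05 ± 0.32 (SE) and an edgeR adjusted p of 0.962. Csf1r was the highest member of its role per length, and its libraries spanned nearly the same range in both genotypes. Csf2ra, the alpha chain of the receptor for granulocyte-macrophage colony stimulating factor, measured 24.3, 11.7 and 26.1 CPM in fx/fx, against 14.7, 15.4 and 16.0 CPM in wt/wt. Libraries fx1 and fx3 were above every wt/wt library and fx2 was below them. Its log2 fold change was 0.43 ± 0.32 (SE), with an edgeR adjusted p of 0.587 and a DESeq2 adjusted p of 0.671, which was 0.0260 without fx2.

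The Fc receptors and the adaptors that carry their signal overlapped between genotypes. Tyrobp (DAP12), the adaptor of Trem2, was the highest of the role at 100.3 ± 40.6 TPM in fx/fx and 117 ± 24.7 TPM in wt/wt. It measured 20.8, 26.9 and 12.0 CPM in fx/fx, against 27.4, 24.8 and 18.4 CPM in wt/wt, a log2 fold change of -0.24 ± 0.32 (SE) with an edgeR adjusted p of 0.791. Fcer1g, the Fc receptor gamma chain, measured 12.8, 18.0 and 7.69 CPM in fx/fx, against 16.0, 13.2 and 10.5 CPM in wt/wt. In all 5 genes of the role fx2 was the highest and fx3 the lowest fx/fx library. Trem2, the lipid-sensing receptor of tumor macrophages, ran between 5.07 and 13.5 CPM in fx/fx and between 10.8 and 13.9 CPM in wt/wt. Fcgr3 ran between 9.10 and 19.8 CPM in fx/fx and between 10.4 and 18.3 CPM in wt/wt. Fcgr1, the high-affinity IgG receptor, had the widest spread of the role, with 7.19, 13.3 and 2.67 CPM in fx/fx, against 14.3, 4.98 and 5.63 CPM in wt/wt. Of the 5, 1 was higher in fx/fx and 4 were lower, with 0 at an unadjusted p under 0.05.

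The C1q genes encode the 3 chains of the molecule that starts the classical complement pathway, and their counts stood in nearly constant proportion. C1qa measured 106, 138 and 57.6 CPM in the fx/fx libraries, against 137, 98.4 and 79.1 CPM in the wt/wt libraries. C1qb measured 80.7, 100.2 and 41.6 CPM in fx/fx, against 85.5, 72.5 and 50.3 CPM in wt/wt. C1qc measured 78.1, 102 and 42.4 CPM in fx/fx, against 88.7, 75.3 and 54.9 CPM in wt/wt. All 3 chains had the same order of libraries within each genotype, highest in fx2 and lowest in fx3, and highest in wt1 and lowest in wt3. The ratio of C1qc to C1qb counts stayed between 0.968 and 1.09 over the 6 libraries, and that of C1qa to C1qb between 1.31 and 1.60. C1qa, the highest per length, had a log2 fold change of -0.06 ± 0.34 (SE) and an edgeR adjusted p of 0.956. The genes sit side by side on the minus strand of chromosome 4, C1qb at 136880129 to 136886187, C1qc at 136889804 to 136893065 and C1qa at 136895917 to 136898803. Their 165 well expressed neighbours within 10 Mb had medians of -0.73, -0.24 and -0.83 in the fx/fx libraries for C1qb, against 0.01, -0.05 and 0.04 in the wt/wt libraries. C1qb relative to Csf1r, which lies on another chromosome, had count ratios of 1.19, 1.28 and 0.964 in fx/fx, against 1.06, 1.15 and 1.28 in wt/wt, with means of 1.15 ± 0.164 in fx/fx and 1.16 ± 0.110 in wt/wt (SD, n = 3 each). The part of the regional medians in the C1q values was not tested.

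Genes of macrophage identity, lysosome and lipid handling likewise overlapped between genotypes in every case. Adgre1, which encodes the F4/80 antigen, measured 21.9, 26.2 and 13.6 CPM in fx/fx, against 25.2, 19.8 and 14.7 CPM in wt/wt, and its ratio to Csf1r counts stayed between 0.314 and 0.375 over the 6 libraries. Lyz2 measured 170.3, 205 and 81.0 CPM in fx/fx, against 109, 156 and 205 CPM in wt/wt, and unlike most members it was highest in wt3 among the wt/wt libraries. Apoe measured 1579, 906 and 386 CPM in fx/fx, against 981, 1075 and 757 CPM in wt/wt, with a log2 fold change of 0.03 ± 0.47 (SE) and an edgeR adjusted p of 0.987. Apoe thus spanned 4.09-fold over all libraries with fx1 at the top and fx3 at the bottom. Ctss ran between 68.4 and 194 CPM in fx/fx and between 93.1 and 191 CPM in wt/wt. Laptm5, a lysosomal membrane protein of blood cells, ran between 31.1 and 61.5 CPM in fx/fx and between 39.2 and 61.1 CPM in wt/wt. Aif1 (IBA1), an actin-binding protein of macrophages, had 6.49, 9.24 and 4.17 CPM in fx/fx, against 11.9, 9.83 and 6.48 CPM in wt/wt, a log2 fold change of -0.51 ± 0.38 (SE) with an edgeR adjusted p of 0.602. Gpnmb, a glycoprotein of lipid-laden macrophages that other cells can also make, measured 9.07, 10.5 and 0.170 CPM in fx/fx, against 0.443, 0.938 and 4.02 CPM in wt/wt. It was high in fx1 and fx2 and lowest of all in fx3, which gave a log2 fold change of 1.87 ± 1.31 (SE) with an edgeR adjusted p of 0.569 and a DESeq2 adjusted p of 0.633, the last of which was 0.0486 without fx3. Without wt3 the log2 fold change was 3.25.

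The enzymes used as opposite poles of macrophage activation varied more between libraries than between genotypes. Arg1, which consumes arginine to make ornithine, measured 62.8, 177 and 347 CPM in the fx/fx libraries, against 556, 87.1 and 264 CPM in the wt/wt libraries. It was highest in fx3 among the fx/fx libraries, as were 3 other members (Chit1, Csf2ra and Mertk), and highest in wt1 among the wt/wt libraries. The log2 fold change was -0.63 ± 0.77 (SE), with an edgeR adjusted p of 0.771. Nos2, which makes nitric oxide from the same amino acid, measured 4.03, 3.35 and 0.558 CPM in fx/fx, against 1.17, 1.12 and 1.20 CPM in wt/wt. The wt/wt libraries were nearly equal, fx1 and fx2 were above them and fx3 was below. Nos2 had a log2 fold change of 1.18 ± 0.66 (SE), an edgeR adjusted p of 0.464 and a DESeq2 adjusted p of 0.376, the last of which was 0.000333 without fx3. The 217 neighbours of Nos2 on chromosome 11 had medians of -0.70, -0.04 and -0.82 in the fx/fx libraries, against -0.0078, -0.05 and 0.04 in the wt/wt libraries, and their part in the Nos2 values was not tested. The ratio of Arg1 to Nos2 counts was 15.6, 52.8 and 622 in fx/fx, against 473, 78.0 and 220.1 in wt/wt. Bulk counts do not show which cells made Arg1 and Nos2, so their ratio cannot be read as a state of macrophages. Chil3, a chitinase-like protein (Ym1) of alternatively activated mouse macrophages, was at most 0.0970 CPM in fx/fx and 0.133 CPM in wt/wt, and near-identical copies make its count uncertain.

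Dendritic cell and granulocyte genes were scarce in both genotypes. Zbtb46, a transcription factor of conventional dendritic cells that endothelium also makes, was the highest of the dendritic genes with 4.29, 6.27 and 2.09 CPM in fx/fx, against 3.24, 4.02 and 3.32 CPM in wt/wt, a log2 fold change of 0.26 ± 0.44 (SE) with an edgeR adjusted p of 0.836. Flt3, the growth factor receptor of dendritic cells, had 0.847, 0.643 and 0.655 CPM in fx/fx, against 1.84, 0.268 and 0.131 CPM in wt/wt. Xcr1, the chemokine receptor of cross-presenting dendritic cells, had 0.904, 0.241 and 0.485 CPM in fx/fx, against 1.84, 0.402 and 0.175 CPM in wt/wt. Both were highest in wt1, and the other wt/wt libraries were far below it. Clec9a, the dead-cell receptor of the same dendritic cells, stayed at or below 0.301 CPM in fx/fx and 0.266 CPM in wt/wt, and its exons overlap those of Clec1b on the same strand, which had 37 counts in all. S100a8, a calcium-binding alarmin of neutrophils, was the highest granulocyte gene per length and had 0.809, 0.670 and 0.582 CPM in fx/fx, against 0.554, 0.670 and 1.00 CPM in wt/wt, a log2 fold change of -0.11 ± 0.40 (SE) with an edgeR adjusted p of 0.933. Its partner S100a9 was at most 0.245 CPM in fx/fx and 0.306 CPM in wt/wt. Csf3r, the receptor for granulocyte colony stimulating factor, ran between 1.65 and 4.48 CPM in fx/fx and between 1.75 and 4.30 CPM in wt/wt.

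Many members shared an order of libraries within each genotype. Library fx2 was the highest of all 6 for 18 of the 36 members tested and fx3 the lowest for 21. Within fx/fx, fx2 was the highest for 24 members and fx3 the lowest for 30, and within wt/wt, wt1 was the highest and wt3 the lowest for 21 each. The 8 core markers of macrophages (Csf1r, Adgre1, Cd68, C1qa, C1qb, C1qc, Fcgr1 and Mertk) summed to 391, 499 and 231 CPM in the fx/fx libraries, against 462, 373 and 278 CPM in the wt/wt libraries. The summed level of fx3 was below and that of fx2 above every wt/wt library, and the median log2 fold change of the 8 was 0.02. Library fx2 was also the least deeply sequenced of the 6, and fx3 had the largest mitochondrial share, 2.93%. The part of depth and RNA quality in this order was not tested. The neighbours of C1qa, C1qb, C1qc, Laptm5 and Csf3r on chromosome 4 and of Cd68 and Nos2 on chromosome 11 had medians between -0.83 and -0.80 in fx3. In fx1 the same neighbours had medians between -0.77 (Csf3r) and -0.63 (Cd68). The log2 CPM of these genes themselves, minus the wt/wt mean, ran between -0.06 (Cd68) and 1.75 (Nos2) in fx1. In fx3 it was -0.67 (Laptm5) or below for each of them. The neighbours of Csf1r had 0.14 in fx3, those of Adgre1 0.05 and those of Tyrobp 0.11. Those of Fcer1g on chromosome 1 had 1.01 in fx3. The part of these regional medians in the order of libraries was not tested.

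**Figure D4:**
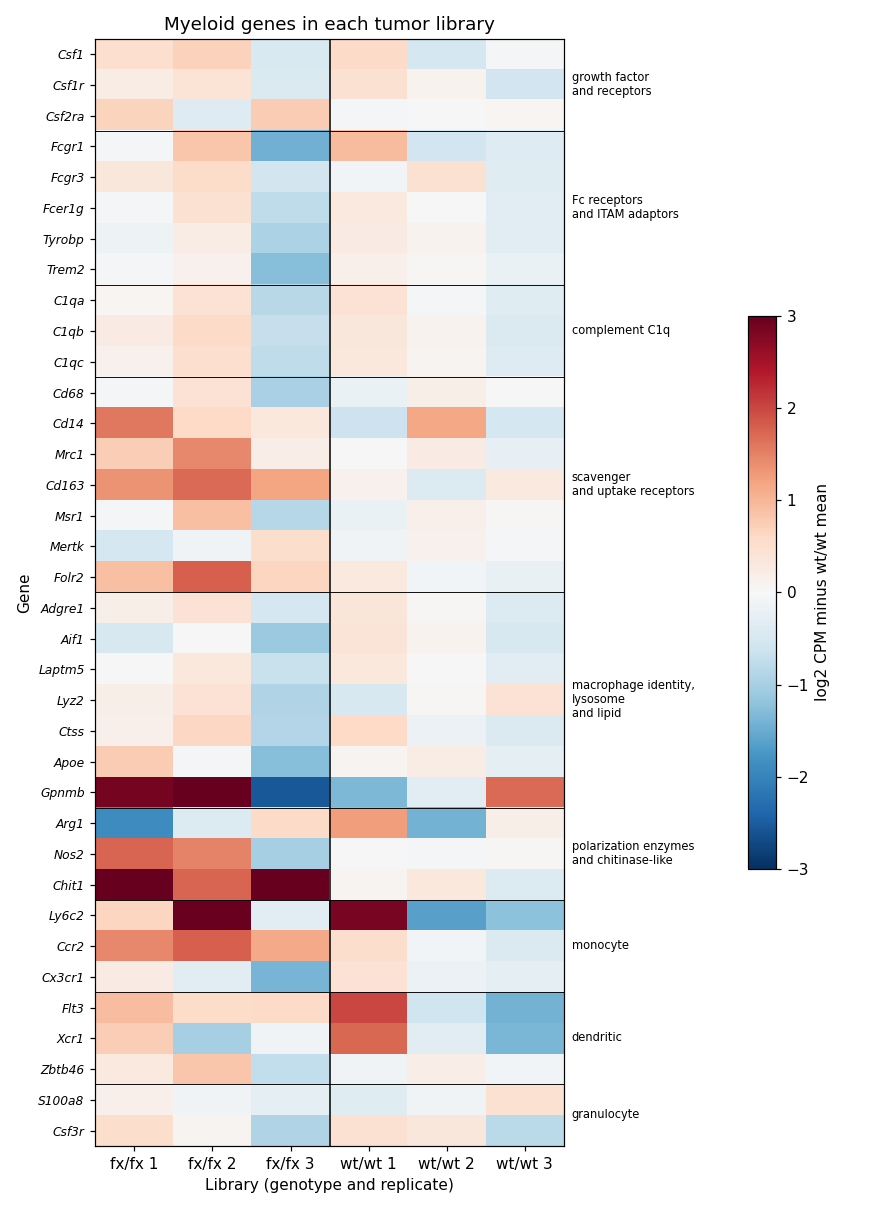
Log2 CPM minus the wt/wt mean for the 36 genes tested (rows, by role) in each library (columns, fx/fx left of wt/wt), red above and blue below the wt/wt mean, with the colour scale ending at 3. The fx3 column is blue for most genes, and Chit1, Cd163, Ccr2, Folr2 and Mertk are among the exceptions.

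Set against this shared order, the same few genes separated the genotypes and 3 more did so downward. Each member's log2 CPM was taken relative to the mean log2 CPM of the 8 core markers in the same library. The markers are members themselves. Subtracting them takes library differences out of genes that vary with them and adds these to genes that do not. Without this scale 9.74% of all genes tested were higher and 9.93% lower without overlap. The shares of all genes on it are therefore no like background for the members. On that scale 5 members were higher in fx/fx without overlap, against 5.64% of all genes tested. They were Chit1 with a difference of 2.94, Ccr2 with 1.52, Cd163 with 1.47, Folr2 with 1.18 and Mrc1 with 0.85. Mrc1 thus lost its overlap, at -0.39, -0.12 and -0.27 in the fx/fx libraries, against -1.43, -0.87 and -1.04 in the wt/wt libraries. On the same scale 3 members were lower without overlap, against 4.27% of all genes: Aif1 by a difference of -0.47, Tyrobp by -0.24 and Laptm5 by -0.06. Aif1 stood at -2.33, -2.24 and -2.30 in fx/fx, against -1.75, -1.71 and -1.98 in wt/wt. As plain ratios of counts, Cd163 over Cd68 was 0.312 ± 0.109 in fx/fx and 0.102 ± 0.0329 in wt/wt, and Mrc1 over Cd68 was 1.40 ± 0.174 in fx/fx and 0.705 ± 0.109 in wt/wt (SD, n = 3 each). These differences are a description, with no test. Several markers lie in regions that differed between genotypes. The neighbours of C1qa, C1qb and C1qc had a median log2 fold change of -0.64 and those of Cd68 -0.48. Those of Csf1r had 0.07, those of Adgre1 0.01, those of Fcgr1 -0.02 and those of Mertk 0.19, while those of Mrc1 had 0.16. The part of these regional differences in the scale and in the ratios was not tested.

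Further myeloid genes, 133 in 7 lists, gave 0 calls by edgeR at an adjusted p under 0.05 and 2 by DESeq2 (Il34 and Lyve1), where DESeq2 called 2.79% of all genes higher and 1.66% lower. The lists' counts at an unadjusted p under 0.05 stand beside 8.18% of all genes higher and 6.04% lower, and their counts of genes higher in fx/fx beside 49.6%. Of 15 transcription factors tested, 10 were higher and 5 lower in fx/fx, with a median log2 fold change of 0.22 and 0 at an unadjusted p under 0.05. Spi1, which encodes PU.1, measured 10.5, 12.5 and 5.92 CPM in fx/fx, against 10.6, 7.95 and 6.33 CPM in wt/wt, a log2 fold change of 0.22 ± 0.36 (SE). Within each genotype it had the same order of libraries as Csf1r and C1q. Cebpb, which other cells also express, was the highest of the list per length at 1299 TPM in fx/fx and 1553 TPM in wt/wt, followed by Id2 at 824 TPM in fx/fx and 845 TPM in wt/wt.

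Of 12 further growth factors and receptors tested, 8 were higher in fx/fx with a median log2 fold change of 0.14, 2 having an unadjusted p under 0.05 upward and 1 downward. Il34, the second ligand of the Csf1r receptor, measured 16.3, 3.32 and 6.19 CPM in fx/fx, against 1.62, 2.64 and 2.69 CPM in wt/wt. The groups did not overlap, although fx1 carried most of the difference, and the log2 fold change was 1.90 ± 0.60 (SE) with an edgeR adjusted p of 0.243 and a DESeq2 adjusted p of 0.0256. Tgfb1 measured 168, 59.8 and 88.6 CPM in fx/fx, against 42.3, 32.0 and 55.5 CPM in wt/wt, a log2 fold change of 1.29 ± 0.39 (SE) with an edgeR adjusted p of 0.235. Kitl, the ligand of the mast cell and progenitor receptor Kit, was lower at 97.8, 132 and 166 CPM in fx/fx, against 206, 205 and 247 CPM in wt/wt, a log2 fold change of -0.73 ± 0.23 (SE) with an edgeR adjusted p of 0.239.

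Of 39 other macrophage genes tested, 31 were higher and 8 lower in fx/fx, against 49.6% of all genes higher, with a median log2 fold change of 0.20. At an unadjusted p under 0.05 there were 7, all higher in fx/fx, against 8.18% of all genes. Lyve1, a hyaluronan receptor of resident macrophages and of lymphatic endothelium, measured 2.47, 4.90 and 3.23 CPM in fx/fx, against 1.02, 0.871 and 1.35 CPM in wt/wt, a log2 fold change of 1.70 ± 0.41 (SE) with an edgeR adjusted p of 0.185 and a DESeq2 adjusted p of 0.0029. Clec4a1, a lectin receptor of myeloid cells, measured 1.96, 3.78 and 1.36 CPM in fx/fx, against 1.04, 0.849 and 0.589 CPM in wt/wt. Pf4, a chemokine of platelets and resident macrophages, measured 2.05, 3.35 and 1.46 CPM in fx/fx, against 1.17, 1.21 and 0.917 CPM in wt/wt. None of these had overlapping genotypes. Spp1, the secreted phosphoprotein osteopontin that tumor cells also make, measured 6920, 83.7 and 79.5 CPM in fx/fx, against 15.6, 9.92 and 18.7 CPM in wt/wt, so a single library held nearly all of its counts, and DESeq2 gave it no adjusted p. The count of 7 was 3 without fx2, 11 without fx3 and 3 without wt3.

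Lysosomal and lipid genes were divided, 8 of 19 being higher in fx/fx with a median log2 fold change of -0.0085, and 4 had an unadjusted p under 0.05, all higher (7 without fx2 and 2 without wt2). Npc2, which exports cholesterol from lysosomes, measured 390.5, 335 and 472 CPM in fx/fx, against 275, 202 and 208 CPM in wt/wt, a log2 fold change of 0.81 ± 0.22 (SE) with an edgeR adjusted p of 0.210. The other 3 handle fatty acids in adipocytes and endothelium as well as in macrophages. The fatty acid binding protein Fabp5 had a log2 fold change of 0.98 ± 0.31 (SE), lipoprotein lipase (Lpl) had 1.40 ± 0.47 and the fatty acid transporter Cd36 had 1.48 ± 0.50. Lpl and Cd36 peaked in fx2, at 80.2 and 69.4 CPM, against at most 23.7 CPM (Lpl) and 18.7 CPM (Cd36) in any wt/wt library.

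Further dendritic cell genes gave 6 of 13 higher in fx/fx with a median of -0.0067, and 2 had an unadjusted p under 0.05, both higher (1 without fx1 and 0 without fx2 or wt2). The highest per length, by the mean over all 6 libraries, was Bst2, an interferon-induced gene of many cells, at 383 TPM in fx/fx and 459 TPM in wt/wt. The surface protein Cd24a, which epithelium also makes, followed at 414 TPM in fx/fx and 168 TPM in wt/wt. Of 17 further granulocyte genes only 5 had enough counts to be tested, and 4 were at 0 in all libraries. At an unadjusted p under 0.05 there were 2 of the 5, both higher in fx/fx (1 without fx2). Among the 5, Mmp9, a secreted gelatinase, measured 0.527, 1.23 and 1.43 CPM in fx/fx, against 0.288, 0.424 and 0.109 CPM in wt/wt. Lactotransferrin (Ltf), a protein of neutrophil granules and of milk, measured 4.89, 5.95 and 5.07 CPM in fx/fx, against 3.10, 2.05 and 3.14 CPM in wt/wt. Of 12 pan-leukocyte genes 7 were higher in fx/fx with a median of 0.11, and 1 had an unadjusted p under 0.05, lower in fx/fx. The lymphoid and myeloid transcription factor Ikzf1 was lower, at 15.6, 28.3 and 31.4 CPM in fx/fx, against 56.6, 35.0 and 59.3 CPM in wt/wt, without overlap and 2.01-fold lower in the mean, with an edgeR adjusted p of 0.245. Its 78 neighbours on chromosome 11 had medians of -0.59, -0.04 and 0.09 in the fx/fx libraries, against 0.0042, -0.11 and 0.08 in the wt/wt libraries, and their part in the Ikzf1 values was not tested.

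Markers of other cell types were summed in the same libraries, and edgeR called 0 of them at an adjusted p under 0.05, as it called 0.0% of all genes tested. Their counts at an unadjusted p under 0.05 stand beside 8.18% of all genes higher in fx/fx. Summed levels of 8 fibroblast markers were 803 to 1469 CPM in fx/fx and 296 to 513 CPM in wt/wt, with 7 of 8 at an unadjusted p under 0.05 and a median log2 fold change of 1.39. The 7 mast cell markers summed to 3.86 to 5.61 CPM in fx/fx and 0.886 to 1.36 CPM in wt/wt, with all 5 tested at an unadjusted p under 0.05 and a median of 2.17. The 6 adipocyte markers summed to 73.5 to 221 CPM in fx/fx and 17.4 to 50.9 CPM in wt/wt, and the 7 endothelial markers to 111 to 219 CPM in fx/fx and 92.2 to 118 CPM in wt/wt, with medians of 2.48 and 0.74. At an unadjusted p under 0.05 there were 4 of 6 adipocyte and 4 of 7 endothelial markers, all higher in fx/fx. The endothelial count was 7 without fx3, 2 without wt3 and 1 without any other library. Of the 8 epithelial markers 1 had an unadjusted p under 0.05, higher in fx/fx. DESeq2 called 5 fibroblast, 4 mast cell, 3 adipocyte, 1 endothelial and 1 epithelial marker, all higher in fx/fx, against 2.79% of all genes. The endothelial, T and NK cell and B and plasma cell sums overlapped between genotypes. T and NK cell markers summed to 6.77 to 17.1 CPM in fx/fx and 8.60 to 26.7 CPM in wt/wt, 1 of 11 tested being higher in fx/fx. Of the 7 B and plasma cell markers 2 had enough counts to be tested, and their sum was 0.897 to 1.63 CPM in fx/fx and 0.524 to 0.961 CPM in wt/wt. No marker of these lists was at 0 in all 6 libraries. The fibroblast, mast cell and adipocyte sums did not overlap between genotypes and were higher in fx/fx, as were Chit1, Cd163, Ccr2 and Folr2, and the part of these cells in the myeloid values was not tested.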

How the data were processed

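RNA of 6 NIC+ mouse mammary tumor libraries, 3 CdGAP fx/fx and 3 CdGAP wt/wt by the labels, was isolated with TRIZOL and RNeasy columns and sequenced on an Illumina HiSeq, per the labels' protocols. The deposited values are raw counts: whole numbers of read pairs assigned to each gene. The authors counted, per the file headers, with featureCounts 1.6.0 against Ensembl 93 of GRCm38, requiring both ends aligned, leaving out chimeric pairs and using strand option 2. STAR 2.5.1b, DESeq2 1.12.3, FastQC 0.11.5 and featureCounts 1.4.6 stand in the submitters' processing notes, so the counter's version differs between the sources. The headers show no option for reads that align more than once, so genes with near-identical copies are less certain.

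GENCODE M21 gave symbols for 54165 of the 54232 identifiers. All rows named a gene, and no 2 libraries were alike (3 to 27 equal counts among at least 12629 genes with over 100 counts). The genotype test was made in edgeR 4.0.16 under R 4.3.3 (filterByExpr, TMM, quasi-likelihood test with robust=TRUE, 2-sided, Benjamini-Hochberg over all 16752 genes tested, threshold 0.05). A fold change is given as log2, fx/fx over wt/wt, and an SE is the fold change divided by the root of its F. CPM carry no prior count, and log2 CPM a prior of 2. TPM were computed from counts and the lengths in the files. Neighbours are genes within 10 Mb with a mean log2 CPM over 3. DESeq2 1.42.0, RLE scaling, no filter, the replicate number as a block and each library left out were the alternatives, and DESeq2 with each library left out was added after seeing the data. The steps were also run on simulated counts with known changes, where the pass rule covered only the sign of the fold changes. The simulation held none of the regional differences described above, and how many changes it recovered is not reported here. No p is adjusted over the members alone, and no set test was made.

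The members, the lists and the tests were chosen with earlier results of these data known. Named were all members; of each further myeloid list the genes with an unadjusted p under 0.05 and no overlap, at most 4, or the 2 highest in TPM where none qualified; and Spi1 and Arhgap31. Promoters are RefSeq's on GRCm38.p6.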

Additional observations from a re-analysis of the deposited data

How the results depend on the processing

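With 3 libraries a genotype, the calls depended on the tool. edgeR called 0 genes and 0 members, DESeq2 called 828 genes and 3 members, and edgeR without the low count filter called 38 genes and 1 member (Chit1). Leaving out 1 library at a time, edgeR called 0 to 2 genes (2 without fx2) and 0 members. The members with an unadjusted p under 0.05 numbered 3 (without wt3) to 7 (without fx3), against 5 with all libraries. DESeq2 with 1 library left out called 2 to 7 members: without fx3 it added Folr2, Gpnmb, Mrc1 and Nos2, without fx2 it added Csf2ra, without wt2 it added Cd14, and without wt2 or wt3 it lost Ccr2. The Arhgap31 log2 fold change was -2.40 by DESeq2, which called it. Chit1, Cd163 and Ccr2 had an unadjusted p under 0.05 in all 11 fits, Folr2 in 8 and Mrc1 in 7.

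The median log2 fold change of the members, 0.03, ran between -0.15 (without fx2) and 0.30 (without fx3). The sign changed under at least 1 alternative for 24 of the 36 members, for 0 of them under DESeq2, RLE scaling or no filter. Leaving out 1 library, the log2 fold changes of these 24 ran -0.20 to 0.30 (Csf1r), -0.75 to 0.54 (Fcgr1), -0.077 to 0.43 (Fcgr3), -0.37 to 0.24 (Fcer1g), -0.52 to 0.037 (Tyrobp), -0.55 to 0.046 (Trem2), -0.36 to 0.23 (C1qa), -0.18 to 0.40 (C1qb), -0.27 to 0.32 (C1qc), -0.45 to 0.22 (Cd68), -0.39 to 0.53 (Msr1), -0.29 to 0.23 (Mertk), -0.16 to 0.29 (Adgre1), -0.32 to 0.16 (Laptm5), -0.32 to 0.28 (Lyz2), -0.35 to 0.38 (Ctss), -0.54 to 0.42 (Apoe), -1.32 to 0.15 (Arg1), -1.30 to 4.19 (Ly6c2), -0.57 to 1.83 (Flt3), -1.16 to 0.92 (Xcr1), -0.14 to 0.60 (Zbtb46), -0.28 to 0.16 (S100a8) and -0.44 to 0.24 (Csf3r). The cause was not tested.

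Same-numbered libraries of the 2 genotypes had correlations of their deviations of -0.08, -0.09 and 0.06. Libraries with different numbers ran between -0.22 (fx3 and wt1) and 0.28 (fx2 and wt1). The numbers thus showed no pairing by this measure, which cannot exclude one with 3 libraries a genotype. With the replicate block edgeR called 0 genes and 0 members, 5 members had an unadjusted p under 0.05, and the median was -0.01. The block turned the sign of 5 log2 fold changes, to -0.042 (C1qc), -0.038 (Mertk), -0.041 (Ctss), -0.18 (Apoe) and 0.71 (Flt3). A level under 0.0817 CPM could not be told from 0 in the shallowest library.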
